A study of Homo sapiens with 12 samples.

Results

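The sterol and fatty acid synthesis genes described here are the enzymes that build cholesterol and long-chain fatty acids, together with the proteins that switch their transcription on and off. The list names 31 genes by their place in the pathway, in 4 steps: early sterol, late sterol, fatty acid and SREBP control. The rule for its members uses no measured value, but the list was drawn up with earlier results of these data known. Of these, 28 had a probe set that named no other gene, out of 11963 genes measured in the series: 7 early sterol, 9 late sterol, 5 fatty acid and 7 SREBP control genes. The probe sets of CYP51A1 and FADS1 all named another gene as well, and FDFT1 was not analysed here.

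RCC4 is an established kidney line derived from clear cell carcinoma, without working VHL, the part of a ubiquitin ligase that recognises hypoxia-inducible factor (HIF) alpha chains. RNA came from RCC4 cells labelled Vec, which carry the empty vector, and from RCC4 cells labelled VHL, to which VHL was returned. Each kind was held for 6 h in full or cystine-deprived DMEM (cystine is the oxidised dimer in which cells import cysteine), with 3 arrays in each of the 4 groups. All 4 groups thus share the RCC4 background, and the Vec groups differ from the VHL groups by the derivative line as well as by VHL. Whether either derivative is 1 clone or a pool is not given in the sources used here, so VHL and any other difference between the derivatives cannot be told apart. Both media contained 10% serum, and the labels name dialysed serum for the deprived medium alone, so in the deprivation comparisons the loss of cystine and a change of serum cannot be told apart. The arrays of a group are labelled biological replicates without a statement that each came from its own culture. The p-values weigh a difference against the spread between these arrays, and may not cover the spread between cultures.

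Cholesterol is made from acetyl-CoA through mevalonate and the isoprenoid pyrophosphates (the early steps) and then from squalene through lanosterol (the late steps), while fatty acids are made from cytosolic acetyl-CoA that ACLY splits from citrate. Most of these genes are activated by the sterol regulatory element-binding proteins (SREBPs), which are held in the endoplasmic reticulum by SCAP and the INSIG proteins when sterols are plentiful. When sterols run low, SCAP carries the SREBPs to the Golgi, where the proteases MBTPS1 and MBTPS2 release the part that enters the nucleus. Clear cell renal carcinoma takes its name from cells filled with lipid and glycogen, and stored cholesterol ester is a known feature of the tumour.

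Values are log2 signals of 1 probe set per gene, and a difference of 1 on this scale is a 2-fold difference. A gene was called when its limma p-value, adjusted over all 11963 genes, was under 0.05. The ± sign precedes the standard error from the fit, and intervals are 95% confidence intervals. Array medians lay between 7.12 and 7.18, and no member had a mean over the 12 arrays at or under 5.95, the 25th percentile of gene means. Of 12 markers of tubule or RCC4 identity, 8 lay above that level, among them PAX8 at 10.92 and VIM at 14.23. Of the brush border genes, AQP1, LRP2, CUBN and ANPEP lay between 4.52 and 5.33, and MME lay at 7.50. Of 13 markers of blood, endothelium, hepatocytes and adipocytes, 9 lay at or under it, with means from 4.20 to 7.23. Between the lines, 4 of the 12 tubule markers were called in full medium (33.3%, where 46.1% of all genes were), including KRT19 at -1.36, KRT8 at -0.61 and MME at 1.04 (VHL minus Vec, log2). The part of such a difference in the results below was not tested. In bulk RNA, fewer cells that make a transcript and less of it per cell cannot be told apart. The probe set for VHL itself was dim, with group means of 5.85 in Vec and 5.99 in VHL cells in full medium (difference 0.14 ± 0.05, limma adjusted p = 0.0532), and its place in the transcript is not known, so it does not check the labels.

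Start-site sequences were on hand for 25 of the 28 genes and are shown for 8 of them, chosen after their values were seen, to show 3 enzymes that were lower in VHL cells (SCD, EBP and LSS), 3 regulators (INSIG2, INSIG1 and SREBF2), and PMVK and MBTPS1, which were higher. The sequence of DHCR7 is left out for space, and none is shown for ACAT2, FASN and SQLE. Each is the 250 bases before the transcription start (RefSeq, GRCh38.p14, 5′ to 3′ on the strand of the gene), and for INSIG2, which has 2 start sites listed, the one furthest upstream. Capitals mark every match, on either strand, to CACNCCAC (GTGGNGTG on the other strand), a core of the sterol regulatory element, to CCAAT or, on the other strand, ATTGG, the box bound by NF-Y, a partner of the SREBPs, and to ACGTG or, on the other strand, CACGT, the form with A of the core bound by HIF. The form with G, GCGTG or, on the other strand, CACGC, is not marked.
SCD: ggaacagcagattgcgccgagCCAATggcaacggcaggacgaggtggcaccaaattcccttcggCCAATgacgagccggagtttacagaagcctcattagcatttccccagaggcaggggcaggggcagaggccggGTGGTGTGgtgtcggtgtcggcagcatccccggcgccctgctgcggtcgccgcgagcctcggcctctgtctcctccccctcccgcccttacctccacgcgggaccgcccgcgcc
EBP: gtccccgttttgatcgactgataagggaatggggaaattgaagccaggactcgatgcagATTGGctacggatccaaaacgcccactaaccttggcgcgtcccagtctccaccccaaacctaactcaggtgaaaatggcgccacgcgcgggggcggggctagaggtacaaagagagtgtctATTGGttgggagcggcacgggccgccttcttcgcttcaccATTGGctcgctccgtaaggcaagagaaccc
LSS: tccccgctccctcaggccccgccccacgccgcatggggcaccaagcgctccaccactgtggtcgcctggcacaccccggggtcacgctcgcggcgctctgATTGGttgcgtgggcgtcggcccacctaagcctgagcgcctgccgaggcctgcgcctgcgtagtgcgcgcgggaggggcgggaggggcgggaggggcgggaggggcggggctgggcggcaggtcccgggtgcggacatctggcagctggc
INSIG2: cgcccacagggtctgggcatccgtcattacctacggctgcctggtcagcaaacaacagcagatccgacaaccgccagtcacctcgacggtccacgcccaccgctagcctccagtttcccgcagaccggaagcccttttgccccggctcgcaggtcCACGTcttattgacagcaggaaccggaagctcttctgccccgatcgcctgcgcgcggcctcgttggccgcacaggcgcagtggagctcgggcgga
INSIG1: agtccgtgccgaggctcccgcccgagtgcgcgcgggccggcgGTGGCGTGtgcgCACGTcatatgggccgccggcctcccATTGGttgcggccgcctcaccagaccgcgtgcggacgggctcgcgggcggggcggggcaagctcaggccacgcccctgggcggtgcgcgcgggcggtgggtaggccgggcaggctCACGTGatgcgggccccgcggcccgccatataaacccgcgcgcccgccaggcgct
SREBF2: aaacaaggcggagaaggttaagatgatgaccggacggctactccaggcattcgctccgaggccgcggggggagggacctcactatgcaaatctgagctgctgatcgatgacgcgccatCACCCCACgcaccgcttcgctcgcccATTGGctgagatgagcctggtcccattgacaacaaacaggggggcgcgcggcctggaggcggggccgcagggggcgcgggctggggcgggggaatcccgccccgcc
PMVK: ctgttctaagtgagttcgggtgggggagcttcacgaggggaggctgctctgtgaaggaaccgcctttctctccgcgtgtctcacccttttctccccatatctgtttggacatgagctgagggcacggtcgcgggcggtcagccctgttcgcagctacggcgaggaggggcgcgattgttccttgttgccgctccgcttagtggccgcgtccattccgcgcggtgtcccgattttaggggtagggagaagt
MBTPS1: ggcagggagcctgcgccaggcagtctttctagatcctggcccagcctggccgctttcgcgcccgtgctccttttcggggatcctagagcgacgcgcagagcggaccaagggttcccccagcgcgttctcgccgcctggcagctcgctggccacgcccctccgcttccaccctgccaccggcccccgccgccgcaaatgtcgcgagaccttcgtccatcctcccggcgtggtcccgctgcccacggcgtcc

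The SCD window (chr10:100346983-100347232) held a sterol element core whose first base lay 114 bases before the start and 2 CCAAT boxes at 229 and 186. EBP (chrX:48521558-48521807) held 3 CCAAT boxes on the opposite strand, at 191, 70 and 30, and LSS (chr21:46228775-46229024) held 1 at 150. INSIG1 (chr7:155297628-155297877) held all 3 kinds of match, and its ACGTG match at 54 overlaps the CACGT match at 55. SREBF2 (chr22:41832855-41833104) held a sterol element core at 132 and a CCAAT box at 106, whereas INSIG2 (chr2:118088221-118088470) held a CACGT match alone. No match to the 3 marked motifs lay in the windows of PMVK (chr1:154936720-154936969) and MBTPS1 (chr16:84116943-84117192). Every window shown, these included, held the unmarked form of the HIF core, GCGTG or CACGC.

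Over all 35 start-site windows of the 25 genes, CCAAT or its reverse was in 22 (62.9%), against 32.0% of all 35116 windows of that length. CACNCCAC was in 6 windows (17.1% against 4.87%) and ACGTG in 8 (22.9% against 18.5%). A HIF core with G in place of A, GCGTG, was in 82.9% against 32.2%. Windows of the same gene overlap or share sequence, and the members' windows were richer in G and C, with a median of 68% against 58%. Among the 15 genes with a window that were lower in VHL cells in both media, 12 had a CCAAT match, and among the 4 that were higher, 2 did. For CACNCCAC and for ACGTG the counts were 3 of 15 and 1 of 4 each, and for GCGTG 14 of 15 and 4 of 4. These matches describe the letters and do not show binding.

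The comparison of the lines within a medium asks how far transcripts of lipid synthesis differ when VHL is returned. Most were lower in VHL cells: in full medium 18 of the 28 genes were lower and 4 higher (22 called), where 46.1% of all genes were called, 23.0% lower and 23.1% higher. In deprived medium 19 were lower and 5 higher (24 called), where 47.2% of all genes were called, 23.0% lower and 24.2% higher. The median difference over the 28 genes was -0.26 in full and -0.31 in deprived medium, beside 0.00 over all genes in both. The media share no arrays but compare the same derivative lines. In both media 18 genes were lower and 4 higher, 2 were called in 1 medium, and 4 (HMGCS1, TM7SF2, SC5D and MBTPS2) in neither. How many of all genes were called in both media was not counted. In full medium all 3 VHL arrays lay below all 3 Vec arrays for 17 genes, where 26.5% of all genes did so, and above them for 4 (26.7% of all genes). In deprived medium they lay below for 20 (26.4% of all genes) and above for 5 (27.9%).

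**Figure D1:**
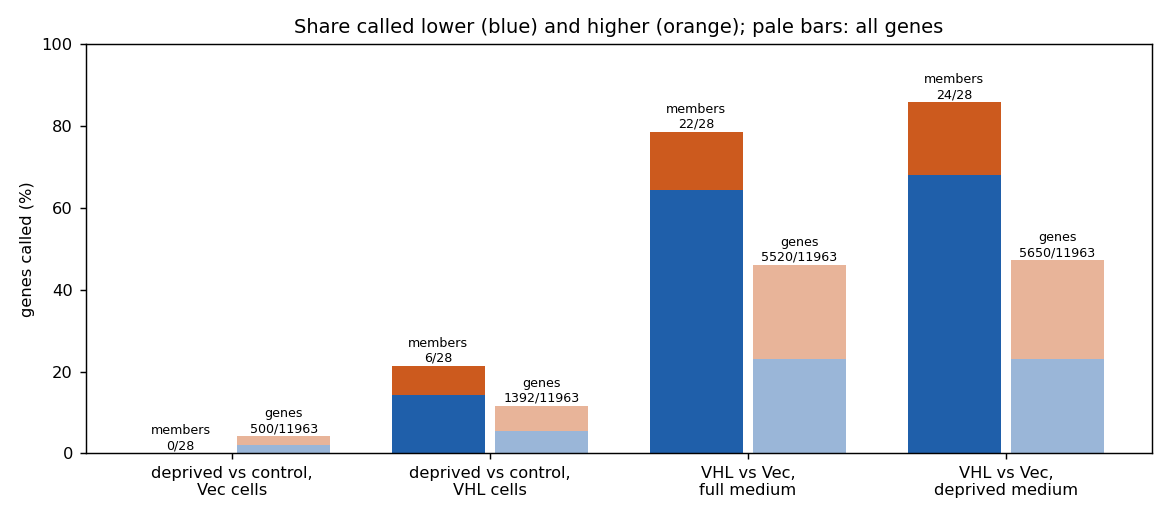
Share of genes called lower (blue) and higher (orange) in 4 comparisons, in percent, for the 28 members (dark bars) and for all 11963 genes (pale bars). In both comparisons of the lines the blue part of the members' bar (18 and 19 of 28 genes) is taller than the whole pale bar beside it, while under deprivation of Vec cells no member was called.

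**Figure D2:**
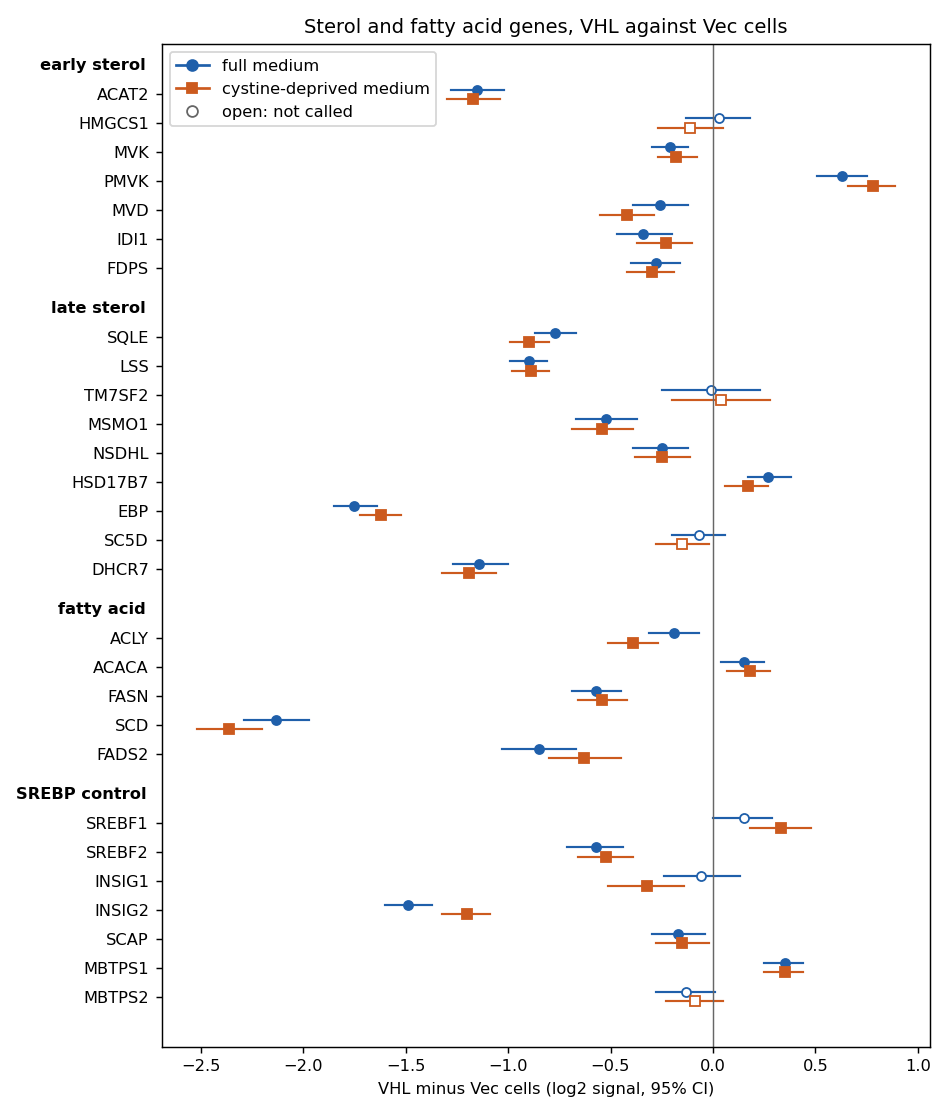
Difference between VHL and Vec cells in log2 signal for each of the 28 genes, in full medium (blue circles) and deprived medium (orange squares), with 95% confidence intervals from limma and open symbols where the gene was not called. SCD, EBP, INSIG2, ACAT2 and DHCR7 lie at or below a difference of -1 in both media, and PMVK lies furthest to the right.

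A difference of at least 2-fold set 5 genes apart, all lower in VHL cells and the same 5 in both media: SCD, EBP, INSIG2, ACAT2 and DHCR7. Across all genes, 2.23% were lower by that much in full medium and 2.19% in deprived medium. They fall in all 4 steps, and no member was higher by 2-fold in either medium. PMVK, the largest difference upward, was 1.55-fold higher in full medium.

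In the early sterol step, 5 of 7 genes were lower in VHL cells and 1 was higher, in each medium. Across all genes 23.0% were lower in each medium, and 23.1% were higher in full and 24.2% in deprived medium. ACAT2 is the cytosolic thiolase that joins acetyl-CoA units at the entry to the pathway. Its log2 signals in full medium were 10.66, 10.74 and 10.67 in Vec cells and 9.68, 9.50 and 9.45 in VHL cells. In deprived medium they were 10.69, 10.74 and 10.75 in Vec cells and 9.61, 9.57 and 9.49 in VHL cells. The groups were far apart in both media, with every VHL array about a full log2 unit under every Vec array. The difference was -1.15 ± 0.06 in full medium, or 2.22-fold (limma adjusted p = 4.30e-09), and -1.17 ± 0.06 in deprived medium (3.54e-09).

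MVK, MVD, IDI1 and FDPS, which carry mevalonate to farnesyl pyrophosphate, were lower by much less. MVK, which adds the first phosphate to mevalonate, read 8.79, 8.79 and 8.85 in Vec cells and 8.57, 8.61 and 8.64 in VHL cells in full medium, and 8.76, 8.78 and 8.72 in Vec cells and 8.58, 8.57 and 8.58 in VHL cells without cystine. MVD, which decarboxylates the product of PMVK to isopentenyl pyrophosphate, read 7.18, 7.28 and 7.12 in Vec cells and 6.97, 6.96 and 6.87 in VHL cells in full medium, and 7.27, 7.18 and 7.22 in Vec cells and 6.69, 6.89 and 6.83 in VHL cells without cystine. For both genes the VHL arrays all lay under the Vec arrays, by a small step that was close to the spread within a group for MVD in full medium. IDI1, the isomerase that makes dimethylallyl pyrophosphate, gave 10.63, 10.44 and 10.55 in Vec cells and 10.11, 10.22 and 10.28 in VHL cells in full medium, and 10.34, 10.41 and 10.39 in Vec cells and 10.22, 10.08 and 10.14 in VHL cells without cystine. FDPS, which joins the isoprene units to farnesyl pyrophosphate, gave 11.05, 11.10 and 11.07 in Vec cells and 10.80, 10.83 and 10.75 in VHL cells in full medium, and 11.01, 11.16 and 11.11 in Vec cells and 10.73, 10.87 and 10.77 in VHL cells without cystine. Neither gene overlapped between the lines in either medium. In full medium the differences were -0.21 ± 0.04 for MVK, -0.26 ± 0.06 for MVD, -0.34 ± 0.06 for IDI1 and -0.28 ± 0.05 for FDPS (limma adjusted p between 4.57e-04 and 0.00343). In deprived medium they ran from -0.42 for MVD to -0.18 for MVK (0.00645 at most). Both probe sets of IDI1 have names ending in _x_at, which may bind related transcripts.

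PMVK, which adds the next phosphate after MVK, went the other way. Its arrays read 9.15, 9.02 and 9.08 in Vec cells and 9.67, 9.71 and 9.76 in VHL cells in full medium, and 9.07, 9.12 and 8.96 in Vec cells and 9.87, 9.80 and 9.81 in VHL cells without cystine. Every VHL array was above every Vec array, by 0.63 ± 0.05 (limma adjusted p = 4.94e-07) and 0.78 ± 0.05 (6.67e-08). MVK and PMVK, which act on neighbouring steps, thus differed between the lines in opposite directions. HMGCS1, which makes the HMG-CoA that is reduced to mevalonate, was not called between the lines, with intervals from -0.13 to 0.18 in full medium and -0.27 to 0.05 in deprived medium on the probe set used. Its other probe set, with a mean of 6.13, was lower in VHL cells in full medium, with a difference of -0.65 (limma adjusted p over all probe sets = 1.44e-04), so the gene's direction depends on the probe set.

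In the late sterol step, 6 of 9 genes were lower in VHL cells in each medium, 1 was higher and 2 were not called. The lower genes were 66.7% of the step, where 23.0% of all genes were lower in each medium. The higher gene was 11.1% of the step, where 23.1% of all genes were higher in full and 24.2% in deprived medium. EBP, the isomerase that moves a double bond in the sterol ring, showed the largest difference of the step. It read 10.68, 10.57 and 10.63 in Vec cells and 8.85, 8.90 and 8.90 in VHL cells in full medium. Without cystine it read 10.48, 10.48 and 10.54 in Vec cells and 8.90, 8.90 and 8.82 in VHL cells. The arrays of a group lay close together, and the gap between the lines was far wider than the spread within any group. EBP was 3.35-fold lower in VHL cells in full medium (-1.75 ± 0.05, limma adjusted p = 8.42e-12) and 3.08-fold lower without cystine (-1.62 ± 0.05, 1.67e-11).

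DHCR7, the reductase of the last step to cholesterol, read 10.39, 10.53 and 10.46 in Vec cells and 9.32, 9.32 and 9.32 in VHL cells in full medium, and 10.48, 10.53 and 10.35 in Vec cells and 9.18, 9.24 and 9.37 in VHL cells without cystine. Again no VHL array came near a Vec array, and the difference was -1.14 ± 0.06 in full medium (5.73e-09) and -1.19 ± 0.06 without cystine (3.58e-09, both limma adjusted p). SQLE, the epoxidase that commits squalene to sterols, read 10.63, 10.57 and 10.64 in Vec cells and 9.83, 9.80 and 9.90 in VHL cells in full medium, and 10.58, 10.55 and 10.62 in Vec cells and 9.71, 9.67 and 9.68 in VHL cells without cystine. LSS, which folds the epoxide into lanosterol, read 10.87, 10.81 and 10.85 in Vec cells and 9.93, 9.94 and 9.96 in VHL cells in full medium, and 10.72, 10.73 and 10.67 in Vec cells and 9.81, 9.80 and 9.85 in VHL cells without cystine. Both enzymes of this stretch were lower in every VHL array. SQLE differed by -0.77 ± 0.05 and -0.90 ± 0.05 in the respective media and LSS by -0.90 ± 0.04 and -0.89 ± 0.04 (limma adjusted p of 1.35e-08 at most).

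MSMO1 and NSDHL take part in removing the methyl groups of lanosterol. MSMO1 read 10.39, 10.50 and 10.42 in Vec cells and 9.88, 10.06 and 9.81 in VHL cells in full medium, and 10.29, 10.44 and 10.49 in Vec cells and 9.80, 9.92 and 9.88 in VHL cells without cystine. NSDHL read 9.48, 9.42 and 9.49 in Vec cells and 9.34, 9.14 and 9.15 in VHL cells in full medium, and 9.28, 9.34 and 9.28 in Vec cells and 8.94, 9.11 and 9.10 in VHL cells without cystine. Both were lower in VHL cells without overlap, NSDHL by the smaller step. The differences in full medium were -0.52 ± 0.07 (3.18e-05) and -0.25 ± 0.06 (0.0042), and without cystine -0.54 ± 0.07 and -0.25 ± 0.06 (limma adjusted p = 2.42e-05 and 0.00535). HSD17B7, the ketoreductase that works with them, was higher in VHL cells. Its arrays read 8.63, 8.63 and 8.69 in Vec cells and 8.98, 8.95 and 8.85 in VHL cells in full medium, and 8.65, 8.67 and 8.73 in Vec cells and 8.85, 8.86 and 8.86 in VHL cells without cystine, and the lines did not overlap. The difference was 0.27 ± 0.05 (2.75e-04) and 0.17 ± 0.05 (0.00991, limma adjusted p), from a probe set with a name ending in _x_at.

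TM7SF2, a sterol reductase, and SC5D, a desaturase before DHCR7, were called in none of the 5 comparisons as fitted. TM7SF2 had the lowest mean of the 28 genes, 6.43, with group means between 6.42 and 6.46 on the used probe set, and its interval between the lines ran from -0.25 to 0.23 in full medium. SC5D ranged from 9.30 to 9.71 over the 12 arrays, with a difference between the lines of -0.07 ± 0.06 in full medium and -0.15 ± 0.06 without cystine (limma adjusted p = 0.37 and 0.0608). The latter was called under 5 of the alternatives (0.0268 to 0.047).

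All 5 fatty acid genes were called in both media, 4 lower and 1 higher in VHL cells. Of all genes, 23.0% were lower in each medium, and 23.1% were higher in full and 24.2% in deprived medium. SCD, the desaturase that makes oleate and palmitoleate, showed the largest difference of all 28 genes. Its log2 signals in full medium were 12.53, 12.73 and 12.58 in Vec cells and 10.45, 10.57 and 10.42 in VHL cells. Without cystine they were 12.54, 12.69 and 12.65 in Vec cells and 10.14, 10.29 and 10.38 in VHL cells. The lowest Vec array, at 12.53, lay almost 2 log2 units above the highest VHL array. SCD was 4.38-fold lower in VHL cells in full medium (-2.13 ± 0.07, limma adjusted p = 8.19e-11) and 5.12-fold lower without cystine (-2.36 ± 0.07, 3.27e-11).

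FADS2, a desaturase of polyunsaturated fatty acids, read 9.10, 8.80 and 8.84 in Vec cells and 8.04, 8.17 and 7.98 in VHL cells in full medium, and 8.86, 8.82 and 8.90 in Vec cells and 8.36, 8.14 and 8.21 in VHL cells without cystine. FASN, the synthase that makes palmitate, read 9.02, 8.99 and 9.06 in Vec cells and 8.45, 8.50 and 8.40 in VHL cells in full medium, and 8.83, 8.94 and 8.83 in Vec cells and 8.40, 8.24 and 8.35 in VHL cells without cystine. All VHL arrays lay under all Vec arrays for both. FADS2 differed by -0.85 ± 0.08 in full medium and -0.63 ± 0.08 without cystine, and FASN by -0.57 ± 0.06 and -0.54 ± 0.06 (limma adjusted p of 2.51e-05 at most). A further FASN probe set, with a mean of 6.83, differed by -0.04 in full medium and was not called (limma adjusted p over all probe sets = 0.773).

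ACLY and ACACA feed FASN with acetyl-CoA and malonyl-CoA. ACLY, the enzyme that splits citrate, read 12.45, 12.59 and 12.52 in Vec cells and 12.32, 12.35 and 12.30 in VHL cells in full medium, and 12.44, 12.54 and 12.55 in Vec cells and 12.08, 12.21 and 12.08 in VHL cells without cystine. ACACA, the carboxylase that makes malonyl-CoA, read 9.41, 9.33 and 9.40 in Vec cells and 9.59, 9.48 and 9.51 in VHL cells in full medium, and 9.40, 9.43 and 9.40 in Vec cells and 9.57, 9.55 and 9.64 in VHL cells without cystine. ACLY was lower and ACACA higher in every VHL array, by at most 0.39. In full medium ACLY differed by -0.19 ± 0.06 (limma adjusted p = 0.0115) and ACACA by 0.15 ± 0.05 (0.0213). Without cystine they differed by -0.39 ± 0.06 (5.04e-05) and 0.18 ± 0.05 (0.00733). The full-medium calls were thin: without Vec replicate 2 the adjusted p of ACLY was 0.0521 and that of ACACA 0.0807, and without VHL replicate 1 that of ACACA was 0.0914.

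Among the SREBP control genes, 3 of 7 were lower in VHL cells and 1 was higher in full medium, and 4 were lower and 2 higher without cystine. Called genes were 57.1% of the step in full medium, near the 46.1% of all genes. Without cystine they were 85.7%, where 47.2% of all genes were called. INSIG2, which helps hold the SREBP complex in the endoplasmic reticulum, differed most. It read 10.22, 10.21 and 10.16 in Vec cells and 8.77, 8.70 and 8.66 in VHL cells in full medium. Without cystine it read 10.22, 10.27 and 10.16 in Vec cells and 9.09, 8.97 and 8.97 in VHL cells. The VHL arrays lay more than a log2 unit under the Vec arrays in both media. The difference was -1.49 ± 0.05, or 2.8-fold, in full medium (limma adjusted p = 1.13e-10) and -1.20 ± 0.05, or 2.31-fold, without cystine (8.19e-10).

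SREBF2 encodes the SREBP that acts mainly on sterol genes. Its arrays read 8.46, 8.41 and 8.30 in Vec cells and 7.81, 7.89 and 7.75 in VHL cells in full medium, and 8.35, 8.35 and 8.50 in Vec cells and 7.80, 7.89 and 7.93 in VHL cells without cystine. It was lower in every VHL array, with differences of -0.57 ± 0.06 (4.98e-06) and -0.52 ± 0.06 (1.17e-05, limma adjusted p). SCAP, the escort of the SREBPs, read 9.24, 9.11 and 9.17 in Vec cells and 8.96, 8.93 and 9.12 in VHL cells in full medium, and 9.15, 9.24 and 9.13 in Vec cells and 9.07, 9.01 and 8.96 in VHL cells without cystine. In full medium 1 VHL array lay above the lowest Vec array, and the difference of -0.17 ± 0.06 was called (limma adjusted p = 0.0341), as was that of -0.15 ± 0.06 without cystine at a value just under the threshold. Neither SCAP call stood up to leaving out arrays: the adjusted p was over 0.05 without 4 of the 6 arrays in full medium (Vec replicate 1 or 3, VHL replicate 1 or 2, 0.07 to 0.136) and without 5 of the 6 in deprived medium (all but VHL replicate 1, 0.0523 to 0.174).

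MBTPS1, the protease that makes the first cut in the SREBPs, read 9.42, 9.38 and 9.38 in Vec cells and 9.74, 9.76 and 9.72 in VHL cells in full medium, and 9.53, 9.51 and 9.45 in Vec cells and 9.85, 9.80 and 9.88 in VHL cells without cystine. It was higher in every VHL array, by 0.35 ± 0.04 in full and 0.35 ± 0.04 in deprived medium (limma adjusted p = 1.69e-05 and 1.85e-05). MBTPS2, which makes the next cut, was called in no comparison and ranged from 7.05 to 7.44 over the 12 arrays, with a difference of -0.13 ± 0.07 between the lines in full medium (0.128). SREBF1, whose SREBP acts mainly on fatty acid genes, and INSIG1, an SREBP target that in turn holds back the SREBPs, were called between the lines without cystine. SREBF1 was higher in VHL cells, with a difference of 0.33 ± 0.07 (0.00107), and INSIG1 lower, with -0.32 ± 0.08 (0.00646), while in full medium the differences were 0.15 ± 0.07 and -0.06 ± 0.08 (limma adjusted p = 0.0977 and 0.653). SREBF1 in full medium was called with quantile scaling (0.0405) and with each array centred on its median (0.0353). SREBF1 and SREBF2 thus differed in opposite directions without cystine. Whether the difference between the lines itself depended on the medium is the test of the responses given further on.

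Because 16 of the 28 genes had more than 1 probe set, each set was also tested on its own. Of the 11 genes lower in VHL cells in full medium that had several, all probe sets were below 0 in 11 and all were called in 9, with MVK and FASN as the exceptions. Without cystine the numbers were 12, 12 and 10, with the same 2 exceptions. The 4 probe sets of SCD differed by -2.13, -2.17, -1.57 and -2.08 in full medium, and the 3 of EBP by -1.75, -1.45 and -0.98. Among genes not called in full medium, INSIG1 had other probe sets at -0.26 and -0.47 (limma adjusted p over all probe sets = 0.0176 and 8.71e-05). ACACA had another at 0.00 (0.971), and with the mean of both its call was lost (0.07, limma adjusted p = 0.322). INSIG2, ACAT2, PMVK and SREBF1 rest on a single probe set.

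**Figure D3:**
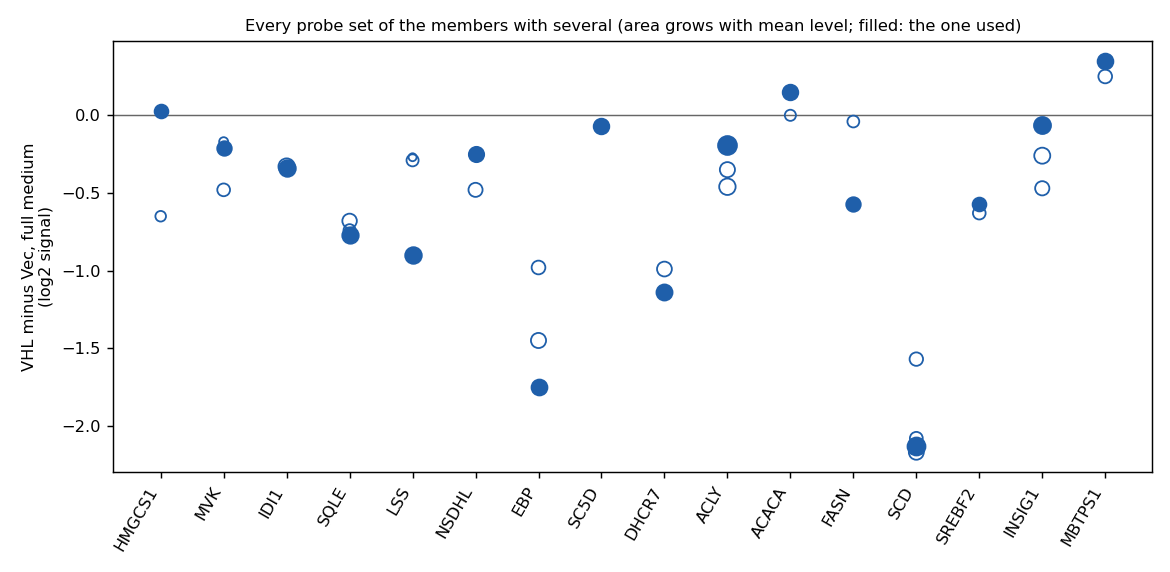
Difference between VHL and Vec cells in full medium, in log2 signal, for every probe set of the 16 genes with more than 1 (filled: the one used; area grows with the mean signal). All probe sets of SCD, EBP, DHCR7, SQLE and LSS lie below 0, and those of HMGCS1 lie on both sides of it.

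The deprivation comparisons ask what 6 h without cystine does to the same transcripts in each line. Changes were small, at most 1.31-fold. In Vec cells none of the 28 genes was called by limma, where 4.18% of all genes were called, 2.11% higher and 2.06% lower. At an unadjusted p under 0.05 there were 8 of the 28, and 1990 of all 11963 genes. In VHL cells 6 were called, where 11.6% of all genes were: HMGCS1, SQLE, ACLY and INSIG1 fell (5.48% of all genes did) and SREBF1 and INSIG2 rose (6.16% did). No member was called in both lines. The median change was -0.01 in Vec and -0.02 in VHL cells, beside 0.01 over all genes in each.

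**Figure D4:**
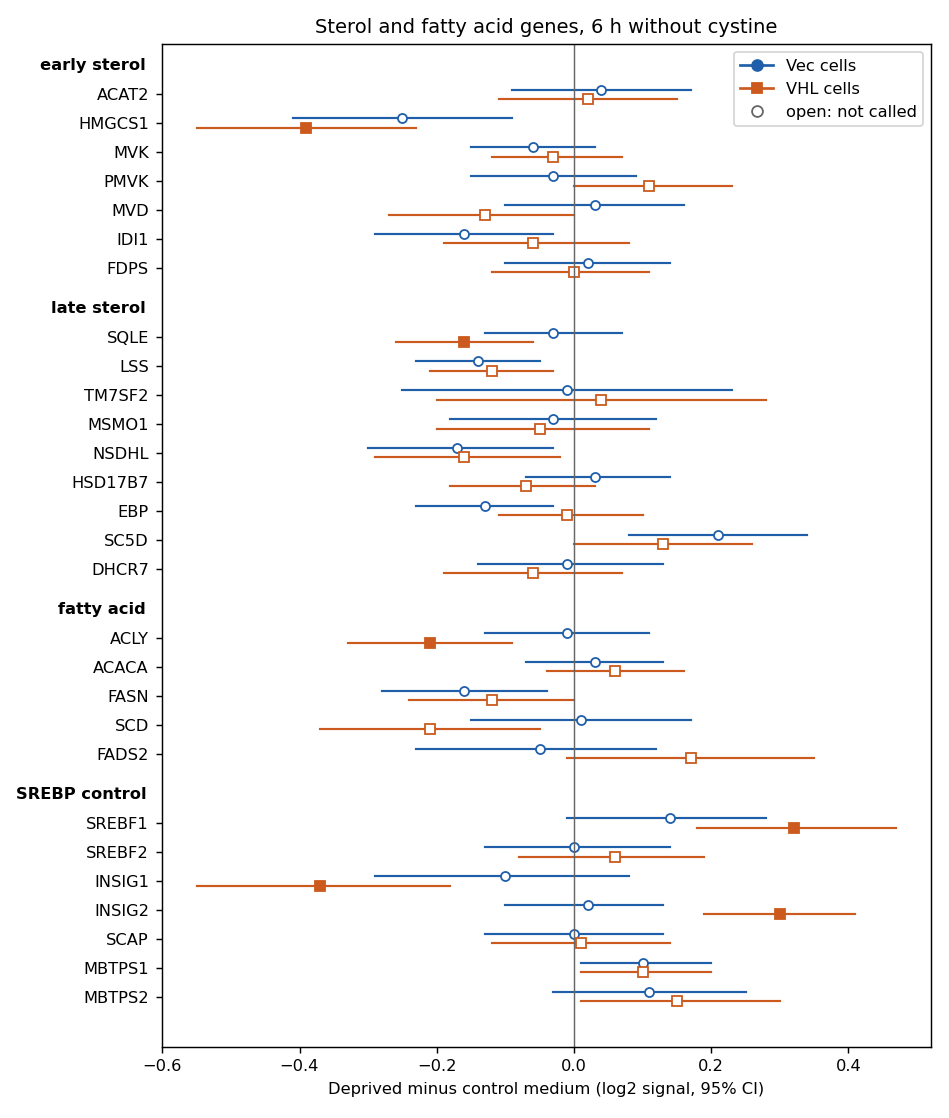
Change in log2 signal after 6 h without cystine for each of the 28 genes in Vec cells (blue circles) and VHL cells (orange squares), with 95% confidence intervals from limma and open symbols where the gene was not called. All values lie between -0.39 and 0.32, and the 6 filled symbols, all in VHL cells, are HMGCS1, SQLE, ACLY, INSIG1, SREBF1 and INSIG2.

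HMGCS1 had the largest fall. In VHL cells it read 8.33, 8.41 and 8.09 in full medium and 7.83, 7.94 and 7.89 without cystine. In Vec cells it read 8.19, 8.33 and 8.23 in full medium and 8.00, 8.04 and 7.96 without cystine. The deprived arrays were below all full-medium arrays in both lines. The change was -0.39 ± 0.07 in VHL cells (limma adjusted p = 0.00469) and -0.25 ± 0.07 in Vec cells (0.0786), where it was not called. The other probe set changed by 0.05 in VHL cells and -0.39 in Vec cells (limma adjusted p over all probe sets = 0.805 and 0.0634). With the mean of both sets, the call moved from VHL cells (-0.17, limma adjusted p = 0.137) to Vec cells (-0.32, 0.0188).

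INSIG1 read 10.86, 10.72 and 10.65 in full medium and 10.26, 10.35 and 10.51 without cystine in VHL cells. In Vec cells it read 10.73, 10.75 and 10.91 in full medium and 10.55, 10.74 and 10.80 without cystine. The VHL groups did not overlap and the Vec groups did. The fall in VHL cells was -0.37 ± 0.08 (limma adjusted p = 0.0149), and the change in Vec cells was -0.10 ± 0.08 (0.616). SQLE, with array values given with the late sterol genes, changed by -0.16 ± 0.05 in VHL cells (0.0407), with all deprived arrays between 9.67 and 9.71 under full-medium arrays between 9.80 and 9.90. ACLY changed by -0.21 ± 0.06 (0.0307), with deprived arrays up to 12.21 under full-medium arrays from 12.30. The calls of these 3 genes were not stable. Without VHL full-medium replicate 1 or VHL deprived replicate 1, 3 members were called, INSIG1 having an adjusted p of 0.0675 and 0.0622. SQLE was not called without any 1 of the 6 arrays (0.0572 to 0.114), nor ACLY without 5 of them, all but VHL deprived replicate 2 (0.0503 to 0.105). Other probe sets of ACLY changed by 0.00 and -0.01, of INSIG1 by -0.09 and -0.16 and of SQLE by -0.13 and -0.07, none of them called.

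SREBF1 and INSIG2 rose in VHL cells and kept their calls under every alternative run. Each has 1 probe set, so averaging or leaving out probe sets could not change its values. HMGCS1, SQLE, ACLY and INSIG1 have more than 1, so their calls faced alternatives that these did not. SREBF1 read 8.24, 8.32 and 8.39 in full medium and 8.69, 8.62 and 8.59 without cystine in VHL cells. In Vec cells it read 8.26, 8.02 and 8.23 in full medium and 8.29, 8.37 and 8.26 without cystine. Deprived arrays were above all full-medium arrays in VHL cells, and in Vec cells the closest arrays of both media were level to 2 decimals. The rise was 0.32 ± 0.07 in VHL cells (limma adjusted p = 0.00877) and the change in Vec cells was 0.14 ± 0.07 (0.336). INSIG2 rose by 0.30 ± 0.05 in VHL cells (0.00312), its deprived arrays lying at 8.97 or above and its full-medium arrays at 8.77 or under, and it changed by 0.02 ± 0.05 in Vec cells (0.917). On the probe sets used, the INSIG genes changed in opposite directions in VHL cells, INSIG1 down and INSIG2 up, though the INSIG1 call was not stable. The INSIG2 rise was measured against the VHL full-medium arrays that also enter the comparison of the lines, and after it INSIG2 was still 2.31-fold lower than in Vec cells.

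**Figure D5:**
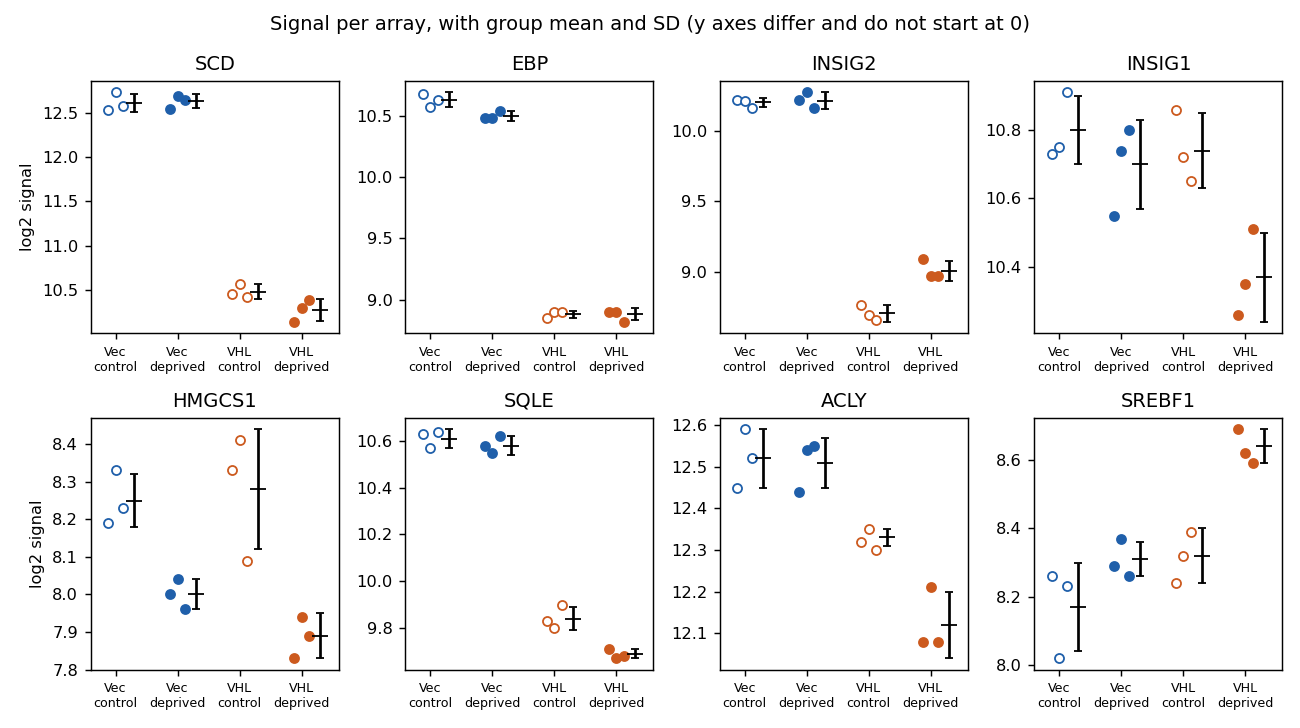
Log2 signal on each of the 12 arrays (points) for SCD, EBP, INSIG2, INSIG1, HMGCS1, SQLE, ACLY and SREBF1, by group, with group mean and SD; the y axes differ and do not start at 0. SCD, EBP, INSIG2, SQLE and ACLY separate by line, whereas HMGCS1, on the probe set used, separates by medium in both lines.

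By the order of the arrays alone, called or not, in Vec cells all deprived arrays were lower for 7 genes and higher for 3, where 10.7% and 11.9% of all genes behaved so, and in VHL cells lower for 7 and higher for 4, where 14.0% and 16.5% did. HMGCS1, LSS and NSDHL were among the lower in both lines: LSS changed by -0.14 ± 0.04 in Vec and -0.12 ± 0.04 in VHL cells (limma adjusted p = 0.0966 and 0.0794) and NSDHL by -0.17 ± 0.06 and -0.16 ± 0.06 (0.185 and 0.124). SC5D had the largest value upward in Vec cells, 0.21 ± 0.06 (0.0805), with 0.13 ± 0.06 in VHL cells (0.183). For SCD in VHL cells the probe sets did not share a direction: the set used changed by -0.21 ± 0.07 (limma adjusted p = 0.0822), whereas another rose by 0.24 (0.0403 over all probe sets). In Vec cells SCD changed by 0.01 ± 0.07, with an interval from -0.15 to 0.17, and EBP by -0.13 ± 0.05 (0.173).

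The difference between the responses of the lines, VHL minus Vec, was called for 0 of the 28 genes by limma. Of all genes 0.134% were called, 0.125% with a higher and 0.00836% with a lower response in VHL cells. At an unadjusted p under 0.05 there were 4 of the 28, and 1176 of all 11963 genes. INSIG2 had the largest value, 0.28 ± 0.07, with an interval from 0.12 to 0.44 and a limma adjusted p of 0.253. INSIG1 (-0.27 ± 0.12, interval from -0.53 to -0.01), FADS2 (0.23 ± 0.12, from -0.03 to 0.48), SCD (-0.22 ± 0.10, from -0.45 to 0.00) and ACLY (-0.20 ± 0.08, from -0.37 to -0.03) followed in size. For SREBF1 the interval ran from -0.02 to 0.39 and for HMGCS1 from -0.36 to 0.09. So the 6 calls in VHL cells beside 0 in Vec cells are not shown to be a difference between the lines.

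Of the genes next to these pathways, some were higher and some lower in VHL cells in each of 5 lists. Of all genes, 23.1% were higher and 23.0% lower in full medium, and 24.2% higher and 23.0% lower in deprived medium. Over the 39 neighbouring genes of these lists, 25 were called in full medium (64.1%, where 46.1% of all genes were). In deprived medium 23 were called (59%, where 47.2% of all genes were). Among 11 other SREBP targets and lipid synthesis genes, 3 were higher and 2 lower in VHL cells in each medium: in full medium NPC1, which moves cholesterol out of lysosomes, at 0.80, FADS3 at 0.32, TMEM97, a regulator of NPC1, at -0.70, and LPIN1, a phosphatidate phosphatase, at -0.87. Of 9 genes of the isoprenoid branch, which use the pyrophosphates for ubiquinone, dolichol and prenylated proteins, 5 were higher and 2 lower in each medium, among them DHDDS of dolichol synthesis at 0.49, GGPS1 at 0.44, ICMT at 0.31 and COQ2 of ubiquinone synthesis at -0.56 in full medium. Of 6 genes that act with the INSIG proteins or in sterol-driven protein degradation, 4 were lower and 1 higher in each medium, with UBE2G2 at -0.47, VCP at -0.39, ERLIN1 at -0.32 and PAQR3 at 0.45 in full medium. Among 5 LXR receptors and targets, the genes switched on by oxysterols, 2 were higher (NR1H3, the receptor LXR-alpha, at 0.66 and MYLIP at 0.44) and 2 lower (ABCA1, the cholesterol exporter, at -0.42 and LPCAT3 at -0.25) in full medium. Without cystine 1 was higher and 2 were lower. Of 8 genes of sterol esters, oxysterols and export, 2 were higher (SOAT1, which esterifies cholesterol, at 0.83 and CYP27A1 at 0.34) and 2 lower (LIPA at -0.17 and NPC2 at -0.13) in full medium, and 2 higher and 1 lower without cystine. The medians of these 5 lists in full medium were 0.01, 0.29, -0.28, -0.01 and 0.04, beside -0.26 for the 28 synthesis and control genes and 0.00 for all genes.

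Under deprivation, 4 of these 39 neighbouring genes were called in Vec cells (10.3%, where 4.18% of all genes were) and 6 in VHL cells (15.4%, where 11.6% were). NPC1 rose in both lines, by 0.33 in Vec and 0.21 in VHL cells (limma adjusted p = 0.00357 and 0.0226). LPCAT3, which places polyunsaturated chains in phospholipids, rose by 0.16 (0.0427) and 0.23 (0.00324). PDSS1, which makes the side chain of ubiquinone, fell, with changes of -0.20 (0.0404) and -0.19 (0.0281). In Vec cells GGPS1 rose by 0.23 (0.0319). In VHL cells ELOVL6, a fatty acid elongase, changed by -0.28 (0.0272), PAQR3 by -0.29 (0.0172) and RNF139 by 0.17 (limma adjusted p = 0.0482). In the line where each was not called, GGPS1 changed by 0.07 (0.421), ELOVL6 by -0.19 (0.194), PAQR3 by -0.06 (0.735) and RNF139 by 0.06 (limma adjusted p = 0.59). The difference between the responses of the lines was called for 0 of the 39 genes, where 0.134% of all genes were called. These calls in 1 line are thus not shown to be a difference between the lines. No gene of the sterol ester and export list was called by limma in either line. At an unadjusted p under 0.05 there were 0 of its 8 genes in Vec and 2 in VHL cells, where 1990 and 3203 of all 11963 genes were.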

How the data were processed

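Total RNA of RCC4 cells was hybridised to 12 single-colour arrays, and the deposited series matrix holds 1 log2 value per probe set and array. The log2 scale was read from the values; whether and how the authors normalized them is not given in the sources used here, and they were used as deposited. Of 22215 probe sets, 19064 named 1 gene, and for 19052 of these the RefSeq symbol (GRCh38.p14) of the gene ID was used. How many symbols this changed was not counted. For each of 11963 genes the probe set of highest mean signal was used. A model with a mean for each group, on all 12 arrays, was fitted with limma 3.58.1 (R 4.3.3), with two-sided moderated tests (8 residual and 12.7 total degrees of freedom), Benjamini-Hochberg adjustment over all genes and a threshold of 0.05. The fit was tested on simulated data. No filter on low values was used, and the precision is limited by the number of arrays.

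Members and gene lists were chosen with earlier results of these data known. Array values are given for every member called in any of the 5 comparisons, and up to 4 called genes are named per neighbouring list and comparison, by smallest adjusted p. Motif letters were counted in the 250 bases before RefSeq start sites. Samples with equal replicate numbers did not deviate together, with residual correlations from -0.268 to 0.235 over 18 pairs (median 0.053), beside -0.350 to 0.291 over 36 other pairs (median -0.018), and were treated as unpaired. Alternatives were other scalings, filters, probe set rules, variance models, a replicate block and leaving out each array.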

Additional observations from a re-analysis of the deposited data

How the results depend on the processing

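Of 22 genes called between the lines in full medium, 19 kept their call under every alternative that tested them, and of 24 without cystine, 23 did. SCAP was lost in both media, ACLY and ACACA in full medium. Calls gained in at least 1 alternative were SREBF1 (limma adjusted p = 0.0353 and 0.0405) and INSIG1 (0.00166) in full medium, SC5D (0.0268 to 0.047) in deprived medium, and LSS (0.0273 to 0.0454), SC5D (0.0282 and 0.0388) and SCD (0.0349 and 0.0409) under deprivation of VHL cells. HMGCS1 turned to -0.31 (limma adjusted p = 0.00178) in full medium with the mean of its probe sets, which disagree. When _x_at and _s_at probe sets were left out, 17 members could be tested, and 12 were called in full and 13 in deprived medium. In Vec cells, deprivation called 1 member with the mean of probe sets and 3 with a variance trend and robust moderation (HMGCS1, LSS and SC5D). In VHL cells, 2 of the 6 calls (SREBF1 and INSIG2) were kept under every alternative that tested them. Both genes have 1 probe set, so the probe set rules could not change their values. Centring each array on its median turned the split of all genes there from 737 higher and 655 lower to 550 and 873, and that of members from 2 and 4 to 2 and 5. Leaving out 1 array at a time gave 0 to 0 called members in Vec cells under deprivation, 3 to 5 in VHL cells, 0 to 0 for the difference between the responses, and 20 to 22 and 23 to 24 between the lines in full and deprived medium. With the replicate number as a block, the counts were 0, 7, 0, 21 and 23 in the same order; the block changed no other call than those of SCAP and, under deprivation of VHL cells, SCD (-0.21, limma adjusted p = 0.0409).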
